A study of Homo sapiens with 4 samples.

Results

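NEAT1, MALAT1 and 7 genes of paraspeckle proteins (NONO, SFPQ, PSPC1, RBM14, HNRNPK, TARDBP and DAZAP1) were followed across 4 RNA libraries of HT1080 cells. HT1080 is a human fibrosarcoma line, and all 4 libraries carried a knockout of KDAC8, the lysine deacetylase encoded by HDAC8. The labels give neither the knockout method nor whether the cells were a single clone, and no parental library was analysed here, so no effect of the knockout can be measured. Members were taken by gene name, which returned 10 rows of 60675 for the 9 genes, because a short RNA element inside MALAT1 carries the same name. The genes were selected on the levels they had in these same libraries, so their levels, order and ratios are a description, and no test compares one gene with another. The rule did not use the spread of a gene between libraries, and the tests concern that spread alone.

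Paraspeckles are nuclear bodies built on the long transcript of NEAT1, a noncoding RNA that stays in the nucleus. NONO, SFPQ and PSPC1, related RNA-binding proteins that pair with each other, bind along this scaffold. HNRNPK favours the long transcript by holding back the polyadenylation that makes the short one, TARDBP (TDP-43) is an RNA-binding protein found in the bodies, and RBM14 and DAZAP1 are needed for them to form. MALAT1 is transcribed from the neighbouring gene and gathers at nuclear speckles, the storage sites of splicing factors. Both RNAs lack a poly(A) tail at their long 3′ end, which RNase P makes by cutting off a transfer RNA-like piece and which a triple helix of U-rich and A-rich stretches then protects. Library preparation started from whole-cell RNA depleted of ribosomal transcripts, a method that does not require a poly(A) tail.

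The 3′ ends of NEAT1 and MALAT1 are shown because they are what the 2 RNAs share and the protein-coding members do not. The sequences are those of the GENCODE release 29 transcripts (GRCh38, plus strand), written as DNA from 5′ to 3′. The first pair covers the last 100 bases before each cut, with capitals on the longest run of bases that both hold, 16 bases long. Both stretches also end in an A-rich run.
MALAT1, chr11:65506017-65506116: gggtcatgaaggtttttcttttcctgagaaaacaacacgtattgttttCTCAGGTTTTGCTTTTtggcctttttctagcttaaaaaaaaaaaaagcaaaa
NEAT1, chr11:65445441-65445540: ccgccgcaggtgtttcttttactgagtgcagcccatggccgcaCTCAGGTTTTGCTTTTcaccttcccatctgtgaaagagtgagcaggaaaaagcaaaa
The next pair gives the transfer RNA-like pieces that follow directly, called mascRNA for MALAT1 and menRNA for NEAT1.
mascRNA, chr11:65506117-65506173: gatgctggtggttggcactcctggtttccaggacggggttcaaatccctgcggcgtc
menRNA, chr11:65445541-65445598: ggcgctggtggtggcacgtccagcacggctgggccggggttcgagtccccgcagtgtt
The pieces are 57 and 58 bases long, and 40 of 59 aligned columns (67.8%) were identical. The annotated NEAT1 gene ends 1 base before menRNA begins, whereas MALAT1-202 runs on for 296 bases past mascRNA.

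The region where the short NEAT1 transcripts end is shown because HNRNPK and the cleavage factors CPSF6 and NUDT21 are known to compete over it. It spans 278 bases of the NEAT1-202 transcript, and capitals mark AATAAA, the usual polyadenylation signal, and TGTA, the letters that NUDT21 prefers, both searched on the RNA strand.
NEAT1, chr11:65426286-65426563: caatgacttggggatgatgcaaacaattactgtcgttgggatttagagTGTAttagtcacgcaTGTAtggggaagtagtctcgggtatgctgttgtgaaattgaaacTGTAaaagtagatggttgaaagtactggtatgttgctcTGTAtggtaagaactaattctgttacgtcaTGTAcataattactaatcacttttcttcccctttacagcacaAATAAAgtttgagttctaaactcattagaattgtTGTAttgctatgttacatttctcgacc
AATAAA occurred 1 time, at position 65426503, and 8.64% of 81 windows of the same length tiled along NEAT1-202 held it. Of the short transcripts annotated to end in this region, NEAT1-208 ends after it, at 65426513. NEAT1-201 (65426457), NEAT1-203, NEAT1-205 and NEAT1-207 end before it. TGTA occurred 6 times and did not overlap AATAAA. At least 1 TGTA was found in 82.7% of the windows, and 3 of the 81 held 6 or more. The variant signal ATTAAA was also searched and does not occur in these letters, against 6.17% of the windows that hold it. The deposited counts are sums per gene, so they do not separate short from long NEAT1.

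Total counts were 39454210 to 45828807 per library. Levels are in CPM, counts per 1000000 after trimmed-mean (TMM) scaling, and every ± gives the SD of the replicates (n = 4). HDAC8 transcripts were counted in every library, at 80, 89, 95 and 107 counts, which does not by itself check the knockout, since a transcript with a small deletion would still be counted. Of 6 mesenchymal markers fixed for HT1080, all 6 reached 1 CPM in every library, which is called detected here. Of 12 markers of epithelial, haematopoietic, endothelial and muscle cells 0 were detected, EPCAM, CDH1, KRT5, MYOD1 and MYOG being at 0 counts. Whether replicates 1 to 4 were grown as separate cultures is not stated in the labels. Each p-value therefore tests only whether these libraries spread beyond counting noise, and that spread may be technical. It also depends on read depth, so it does not rank genes by their spread.

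MALAT1 (ENSG00000251562, chromosome 11, 65497688 to 65506516, plus strand, long intergenic noncoding RNA) was the highest of the 9 genes, in CPM and per kilobase, and in CPM the highest of the 890 long noncoding rows detected. It had 98220, 79302, 105338 and 132623 counts in replicates 1 to 4, or 2429, 1883, 2325 and 3137 CPM, with a mean of 2444 ± 519 CPM. Replicate 4 was highest and replicate 2 lowest, a 1.67-fold range. MALAT1 alone took 0.181% to 0.322% of all counts in a library. It ranked 20 among all rows by CPM and 91 among detected genes per kilobase of exon.

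NEAT1 (ENSG00000245532, chromosome 11, 65422774 to 65445540, plus strand, long intergenic noncoding RNA) differed in 1 library. It had 10292, 11252, 12254 and 25192 counts in replicates 1 to 4, or 255, 267, 271 and 596 CPM. Replicates 1 to 3 lay within a 1.06-fold range, and replicate 4 stood above all of them, so that the whole range was 2.34-fold. The mean was 347 ± 166 CPM over the 4 libraries and 264 ± 8.42 CPM over replicates 1 to 3 alone (n = 3). Counting error was small beside this gap, with an exact Poisson 95% interval of 24882 to 25505 counts for replicate 4 and of 12038 to 12473 counts for replicate 3. In CPM NEAT1 ranked 4 among the long noncoding rows, after MALAT1, LRRC75A-AS1 (463 CPM) and the row named LINC00657, the older name of NORAD (376 CPM).

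**Figure D1:**
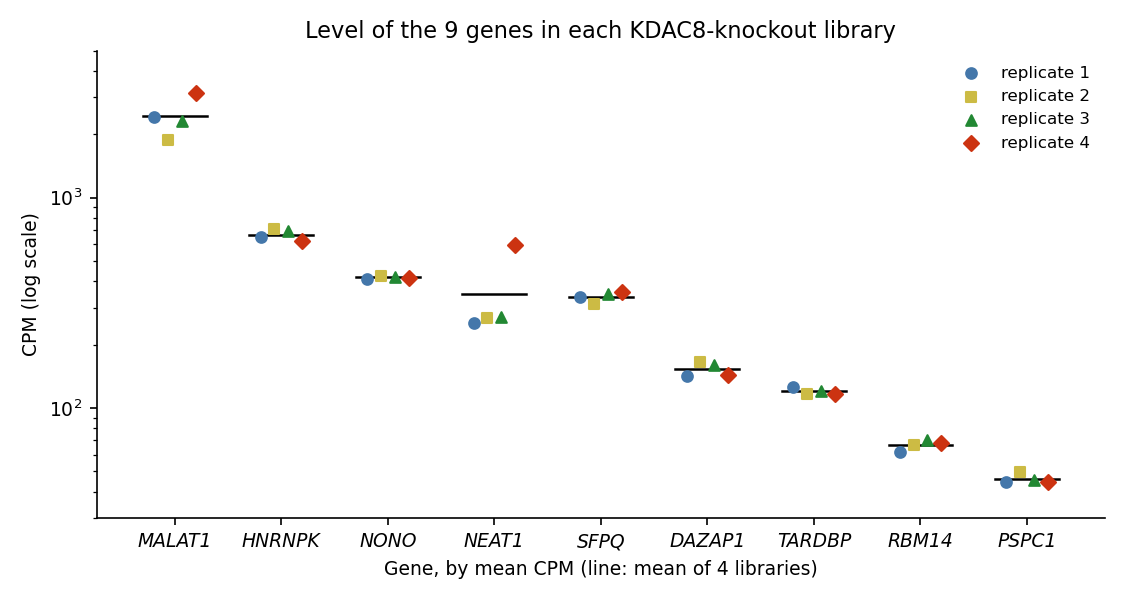
CPM (log axis) of the 9 genes in each of the 4 KDAC8-knockout libraries, with symbols for replicates and a line at the mean. MALAT1 lies above all other genes in every library, and NEAT1 stands at 255 to 271 CPM in replicates 1 to 3 and at 596 CPM in replicate 4.

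The protein genes covered a wide range of levels and a narrow range between libraries. HNRNPK (ENSG00000165119, chromosome 9, 83968083 to 83980616, minus strand), which also acts in transcription and RNA processing outside paraspeckles, had 649.9, 706, 692 and 623 CPM, a mean of 668 ± 38.0. Its lowest value was in replicate 4, where NEAT1 was highest, and its range was 1.13-fold. NONO (ENSG00000147140, chromosome X, 71283192 to 71301168, plus strand) had 410.3, 422, 420.2 and 417 CPM, a mean of 418 ± 5.28. It was the steadiest of the 9 genes, with a 1.03-fold range.

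SFPQ (ENSG00000116560, chromosome 1, 35176378 to 35193148, minus strand), the partner of NONO that is essential for NEAT1 stability, had 335, 314, 347 and 358 CPM, a mean of 338 ± 18.9. PSPC1 (ENSG00000121390, chromosome 13, 19674752 to 19783019, minus strand), the third member of this family, had 44.3, 49.8, 45.2 and 44.3 CPM, a mean of 45.9 ± 2.65. PSPC1 was highest in replicate 2, and the other 3 libraries lay close together. SFPQ was lowest in replicate 2 and highest in replicate 4.

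Levels of different genes are compared per kilobase of exon, since a longer RNA gives more reads. On that scale the family stood at 78.9 ± 0.998 CPM for NONO, 45.6 ± 2.55 for SFPQ and 9.53 ± 0.55 for PSPC1, in this order in every library and with no overlap between the genes. The log2 ratio of SFPQ to NONO per kilobase was -0.78, -0.92, -0.76 and -0.71 in replicates 1 to 4, which puts SFPQ 1.73-fold below NONO on average. PSPC1 lay 8.29-fold below NONO, with log2 ratios of -3.08, -2.95, -3.08 and -3.10. These are ratios of RNA, and protein amounts were not measured.

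DAZAP1 (ENSG00000071626, chromosome 19, 1407569 to 1435687, plus strand) had 142, 165, 160.2 and 144 CPM, a mean of 153 ± 11.8, and its 1.17-fold range was the widest of the protein genes. TARDBP (ENSG00000120948, chromosome 1, 11012344 to 11026420, plus strand) had 126, 116, 121 and 117 CPM, a mean of 120.0 ± 4.67. RBM14 (ENSG00000239306, chromosome 11, 66616582 to 66627347, plus strand) had 61.5, 66.5, 70.1 and 68.4 CPM, a mean of 66.6 ± 3.71. Replicate 1 was highest for TARDBP and lowest for DAZAP1 and RBM14, so these genes did not share an order of libraries.

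Some members share reads with other rows, which limits their counts. RBM14 overlaps the read-through gene RBM14-RBM4, whose row held 821 counts over the 4 libraries, and its counts were not whole in any library. An antisense row over HNRNPK held 101 counts in total and a protein-coding row over TARDBP held 42.2. Pseudogene rows named after the members held at most 0.0943% of the member's counts, the highest being that of NONO. For NEAT1 and MALAT1, 6 rows of 57 to 396 bases lie inside or across the genes, mascRNA and the second row named MALAT1 among them, and all 6 were at 0 counts in all 4 libraries, as was menRNA next to NEAT1. A count of 0 allows up to 0.0176 CPM over the 4 libraries (3 counts, counting error only), although bases that lie inside a longer RNA can be counted on the longer row. Whether these libraries and their counting recover RNAs as short as mascRNA and menRNA was not tested. For such rows the bound is one on counts and not on the amount of RNA. Whether the counting used strand is not stated in the labels.

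The set allows the 2 nuclear RNAs to be compared with the 7 protein genes within each library. In CPM, which compares reads and not molecules, MALAT1 exceeded all 7 protein genes in 4 of 4 libraries. NEAT1 exceeded 4 of 7 (SFPQ, NONO and HNRNPK were higher) in replicates 1 to 3 and 6 of 7 in replicate 4, with HNRNPK above it. The mean log2 CPM of the 2 RNAs exceeded that of the 7 protein genes by 2.20, 1.98, 2.14 and 2.98 in replicates 1 to 4, or 5.01-fold on average. For NEAT1 alone the difference in log2 CPM was 0.57, 0.58, 0.59 and 1.78, and for MALAT1 alone 3.83, 3.39, 3.69 and 4.18. The value for NEAT1 was nearly the same in replicates 1 to 3, with an SD of 0.00753 without replicate 4, against 0.60 with it.

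Where NEAT1 stood depended on the length by which its reads were divided. The joined exons of NEAT1 span 22767 bases, against 8829 for MALAT1 and 3937 to 9201 for the protein genes. Per kilobase of exon MALAT1 stood at 277 ± 58.8 CPM and remained above HNRNPK (131 ± 7.43) in every library. NEAT1 stood at 11.2, 11.7, 11.9 and 26.2 CPM per kilobase, a mean of 15.2 ± 7.29. On this scale it was above 1 of the 7 protein genes, PSPC1, in replicates 1 to 3, and above 4 of the 7 protein genes in replicate 4. The log2 difference between NEAT1 and the protein genes turned negative, at -1.41, -1.40, -1.39 and -0.20. MALAT1 exceeded NEAT1 by 24.6-fold, 18.2-fold, 22.2-fold and 13.6-fold per kilobase in replicates 1 to 4.

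The order of the 9 genes per kilobase of exon was MALAT1, HNRNPK, NONO, SFPQ, TARDBP, RBM14, DAZAP1, NEAT1 and PSPC1. Neighbours in this order had ranges that did not overlap, apart from RBM14 (16.9 ± 0.943) with DAZAP1 (16.6 ± 1.28), and DAZAP1 with NEAT1. TARDBP stood at 19.8 ± 0.769. NEAT1-202 alone of the annotated transcripts spans nearly the whole gene. Divided by the 3441 bases of its short transcript NEAT1-201, an alternative chosen after the data were seen, NEAT1 stood at 101 ± 48.3 CPM per kilobase, above 5 of 7 protein genes in replicates 1 to 3 and above all 7 in replicate 4. Per kilobase of the longest transcript, NEAT1 lay below all 7 in replicates 1 to 3 and above 3 of 7 in replicate 4, and MALAT1 (281 ± 59.6) lay below HNRNPK (227 ± 12.9) in replicate 2.

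**Figure D2:**
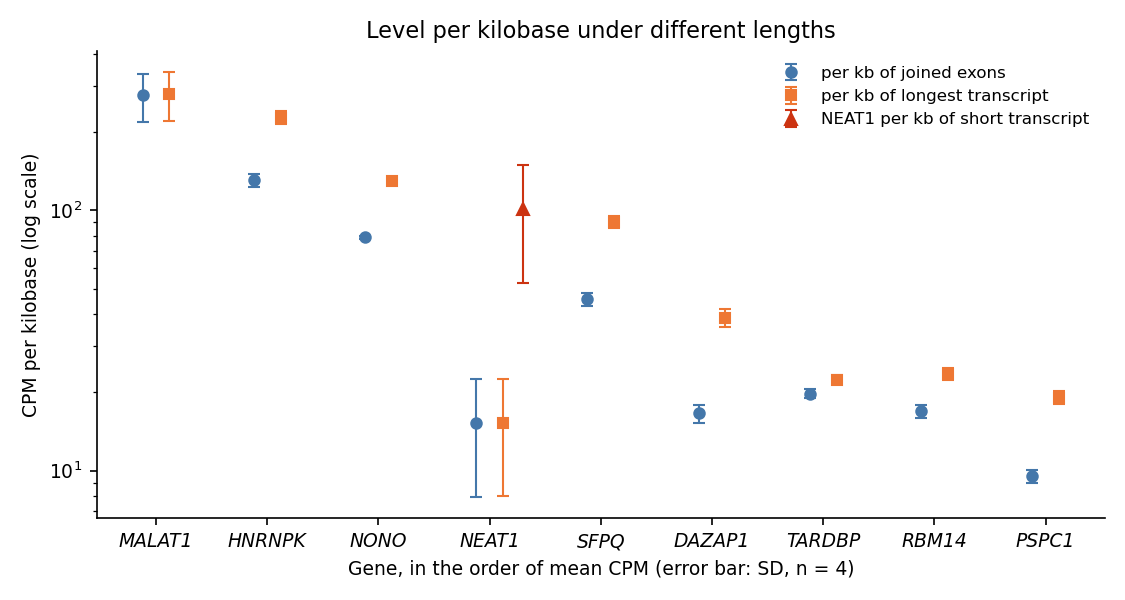
CPM per kilobase (log axis; mean with SD over 4 libraries) of the 9 genes, divided by the joined exons, by the longest transcript, and for NEAT1 also by its short transcript. MALAT1 stays highest on both scales, whereas NEAT1 moves from 15.2 to 101 CPM per kilobase with the transcript assumed.

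Between libraries, NEAT1 ranged over 2.34-fold and MALAT1 over 1.67-fold, against 1.03-fold to 1.17-fold for the 7 protein genes. In a chi-square test of homogeneity of the counts, 8 of the 9 members varied beyond counting noise (Benjamini-Hochberg adjusted p under 0.05), against 59.2% of all 16790 genes tested and 77.7% of the 9480 genes that averaged at least 10 CPM. A share near this background is not a result about the members. NEAT1 and MALAT1 varied with a range over 1.5-fold, a call made for 1.75% of the 9480 genes, and NEAT1 with a range over 2-fold, a call made for 0.475%. Single libraries decided the 1.5-fold call, since the range of MALAT1 was 1.29-fold without replicate 4 and 1.35-fold without replicate 2, and that of NEAT1 1.06-fold without replicate 4. Of the 7 protein genes, 0 reached 1.5-fold. NEAT1 ranked 18 and MALAT1 84 of the 9480 genes by range, and NONO ranked 9399. The median range of these genes was 1.15-fold.

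The adjusted p-values of the protein genes came from the same chi-square test across all genes. They depend on read depth as well as on spread, so their order is not an order of spread. HNRNPK and PSPC1 had nearly the same SD of log2 CPM (0.0826 and 0.0811), at means of 668 and 45.9 CPM. The smallest p-values were those of HNRNPK (8.6e-58), SFPQ (9.5e-28) and DAZAP1 (1.88e-23). RBM14 (3.34e-05), TARDBP (0.000159) and PSPC1 (0.000659) also passed, and NONO did not (0.0662). Single libraries decided some of these calls. PSPC1 no longer passed without replicate 2 (0.55), and neither RBM14 (0.198) nor TARDBP (0.125) passed without replicate 1, while NONO passed without replicate 2 (0.0394) or replicate 4 (0.0368). NEAT1 still passed without replicate 4 (6.23e-05), at a range of 1.06-fold.

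edgeR's biological coefficient of variation, its estimate of spread beyond counting noise, was 0.228 for NEAT1 and 0.129 for MALAT1. The 7 protein genes had 0.0651 to 0.0742, below the 0.0923 common to all genes tested. The estimate pulls each gene toward others of similar level, and the common value includes genes with few reads. NONO and DAZAP1, whose log2 CPM had SDs of 0.0183 and 0.111, had values of 0.0669 and 0.0742. The narrow band and its place below the common value are therefore not read as a trait of these genes. Without replicate 4 the value for NEAT1 was 0.0706, beside 0.0867 for MALAT1 and a common value of 0.0808. Without replicate 2 it was 0.134 for NEAT1 and 0.0757 for MALAT1. The lower value for NEAT1 does not mean that its levels spread less without replicate 2. Their range stayed at 2.34-fold, and their SD was 190 CPM, against 166 CPM over all 4 libraries.

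**Figure D3:**
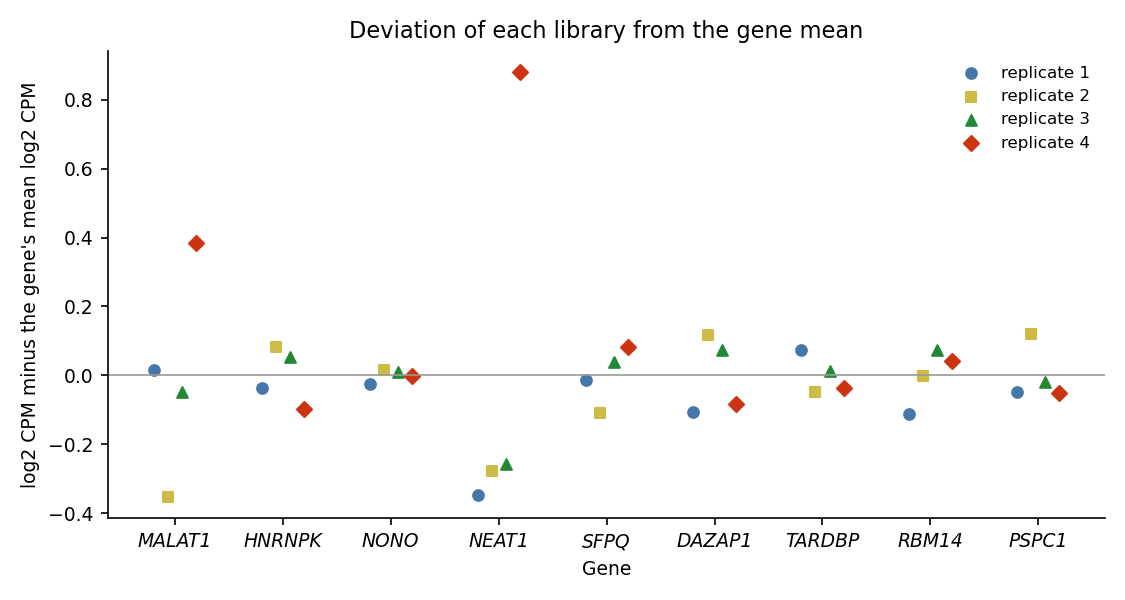
Log2 CPM in each library minus the gene's mean log2 CPM, for the 9 genes. NEAT1 in replicate 4 lies 0.88 above its mean and MALAT1 0.38 above, with replicate 2 of MALAT1 0.35 below, while all protein genes stay close to 0.

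NEAT1 and MALAT1 were both highest in replicate 4, but their other libraries differed. In log2 CPM relative to its own mean, NEAT1 stood at -0.35, -0.28, -0.26 and 0.88 in replicates 1 to 4, and MALAT1 at 0.02, -0.35, -0.05 and 0.38. The log2 ratio of NEAT1 to MALAT1 in CPM was accordingly -3.25, -2.82, -3.10 and -2.40. Of the 9480 genes at 10 CPM or more, NEAT1 had the third highest deviation in replicate 4, behind the noncoding row RP11-366L20.2 (1.08) and MTATP6P1 (0.90), a pseudogene of a mitochondrial gene. MALAT1 ranked 69. The protein genes deviated in replicate 4 by -0.10 (HNRNPK) to 0.08 (SFPQ), around a median of -0.03 for all 9480 genes.

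**Figure D4:**
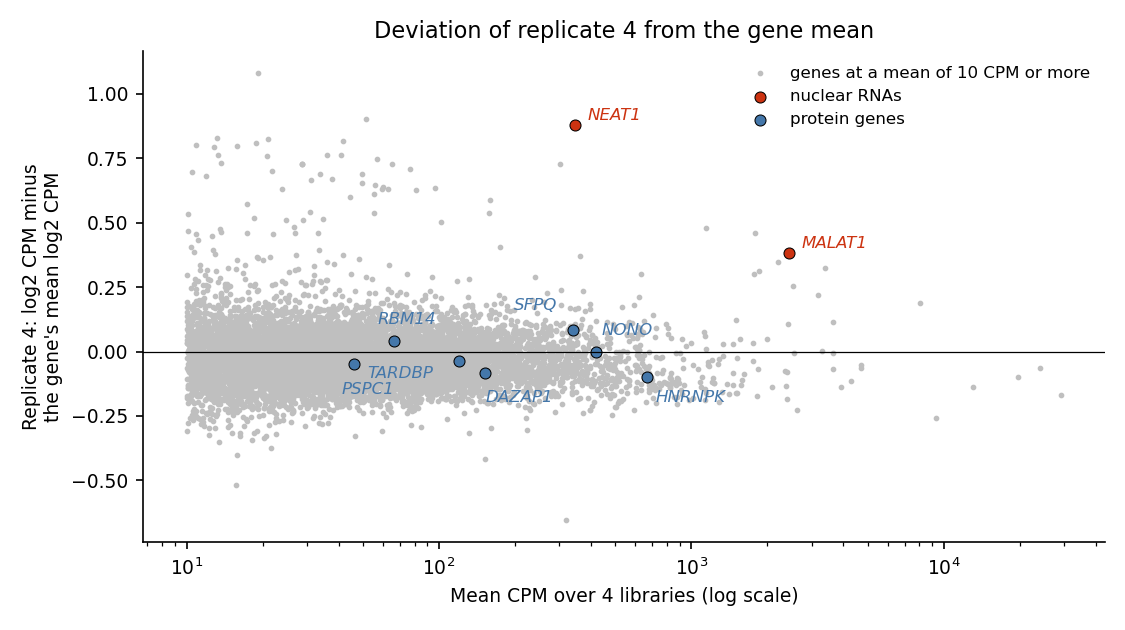
Deviation of replicate 4 from the gene's mean log2 CPM against mean CPM (log axis), for the 9480 genes averaging at least 10 CPM (grey), the 2 nuclear RNAs (red) and the 7 protein genes (blue). NEAT1 (0.88) and MALAT1 (0.38) lie above the bulk of genes of their level, and the protein genes lie within it. MALAT1 is not alone at its level, where the mitochondrial genes MT-ATP6 (1778 CPM) and MT-ND5 (2208 CPM) deviate by 0.46 and 0.35.

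Replicate 4 also had the highest share of 2 other kinds of RNA. Long intergenic noncoding RNA without NEAT1 and MALAT1 took 0.4% of its counts, against 0.331% to 0.341% in the other libraries, and mitochondrial transcripts took 2.85%, 1.99%, 2.58% and 3.28% in replicates 1 to 4. That is the order of libraries that MALAT1 had. Structural RNAs (RN7SL1, RN7SL2, RN7SK, RPPH1 and RMRP) took 7.98% there, within the range of the others at 6.94%, 10.5% and 8.99% in replicates 1 to 3. At 10 CPM or more, the median deviation in replicate 4 was 0.05 for 75 long intergenic noncoding genes and -0.04 for 9213 protein-coding genes. It was 0.04 for 44 antisense genes, 0.07 for 30 processed transcripts and 0.11 for 45 transcribed unprocessed pseudogenes. An upward median was therefore not particular to long intergenic noncoding RNA. The part of these shifts in the NEAT1 and MALAT1 values was not tested.

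Other long noncoding RNAs were set beside them from a list of 14, of which 12 were detected and 10 varied by the chi-square test, beside 59.2% of all genes tested and 77.7% of those averaging at least 10 CPM. KCNQ1OT1, a nuclear RNA that silences an imprinted cluster, had 84.7, 75.6, 81.0 and 144 CPM, highest in replicate 4 like NEAT1. FTX, from the X-inactivation centre, had 3.73, 3.63, 4.11 and 6.55 CPM. The 3 with the most reads had narrower ranges, up to 1.18-fold for TUG1. NORAD, a mainly cytoplasmic RNA, had 376 ± 19.2 CPM, GAS5 246 ± 6.80 and TUG1 172 ± 12.4. Of the 12, KCNQ1OT1 and FTX varied with a range over 1.5-fold, a call made for 1.75% of genes averaging at least 10 CPM. FTX, at a mean of 4.51 CPM, lies below that level. The list median deviation in replicate 4 was 0.08. The lowest member was MEG3 at 0.018 CPM, under the level that 3 counts give in a single library.

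The genes whose pattern over the 4 libraries was most like that of NEAT1, by the root mean square difference of centred log2 CPM among 9479 genes, were noncoding or unclassified rows. They were RP11-259O2.3 (0.0543), RP11-463O12.5 (0.0674) and AC092669.3 (0.0846). RP11-259O2.3 had 9.90, 10.3, 10.1 and 21.1 CPM. For MALAT1 they were RP4-555D20.2 (0.0166), ANKRD20A1 (0.0323) and GOLGA8A (0.0413), the last with 62.1, 51.0, 61.2 and 78.8 CPM. MALAT1 itself took position 67 in likeness to NEAT1 (0.327), whereas in likeness to MALAT1, NEAT1 took position 6675, behind 5 of the 7 protein genes. The nearest protein member to NEAT1 was SFPQ, at position 993 (0.465), and SFPQ was also the nearest to MALAT1, at position 907 (0.199). The measure depends on how far a gene swings as well as on the order of its libraries. NONO, with a 1.03-fold range, thus lay nearer to MALAT1 (0.269) than NEAT1 did (0.327). Likeness over 4 libraries rests on few points and is a description.

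NEAT1 and MALAT1 lie 52147 bases apart on chromosome 11, and replicate 4 deviated upward by at most 0.25 (log2) in any expressed gene around them. Within 100 kb of either gene the table holds 23 other rows, of which 10 were at 0 and 10 reached a mean of 1 CPM. LTBP3, a binding protein of latent TGF-beta, took the most reads, at 178 ± 14.2 CPM, followed by EHBP1L1 (95.9 ± 7.21), DPF2 (69.5 ± 4.79) and MAP3K11 (58.1 ± 4.29). FRMD8, whose gene precedes NEAT1, had 26.1, 28.6, 30.2 and 26.3 CPM. FAM89B (22.3 ± 1.65) and SSSCA1 (24.4 ± 3.44) overlap each other, so their split is uncertain.

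Between NEAT1 and MALAT1 the pseudogene CMB9-22P13.1 had 1.18 ± 0.286 CPM. SLC25A45, whose gene precedes FRMD8 and so lies outside that gap, had 1.43 ± 0.361 CPM. Log2 deviations in replicate 4 ran from -0.15 (SSSCA1) to 0.25 (CMB9-22P13.1) among the 10 genes. LTBP3 stood at 0.10 and FRMD8 at -0.08 there. Of the 10, 9 varied by the chi-square test, beside 59.2% of all genes tested and 77.7% at 10 CPM or above, with ranges of 1.15-fold to 1.79-fold.

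**Figure D5:**
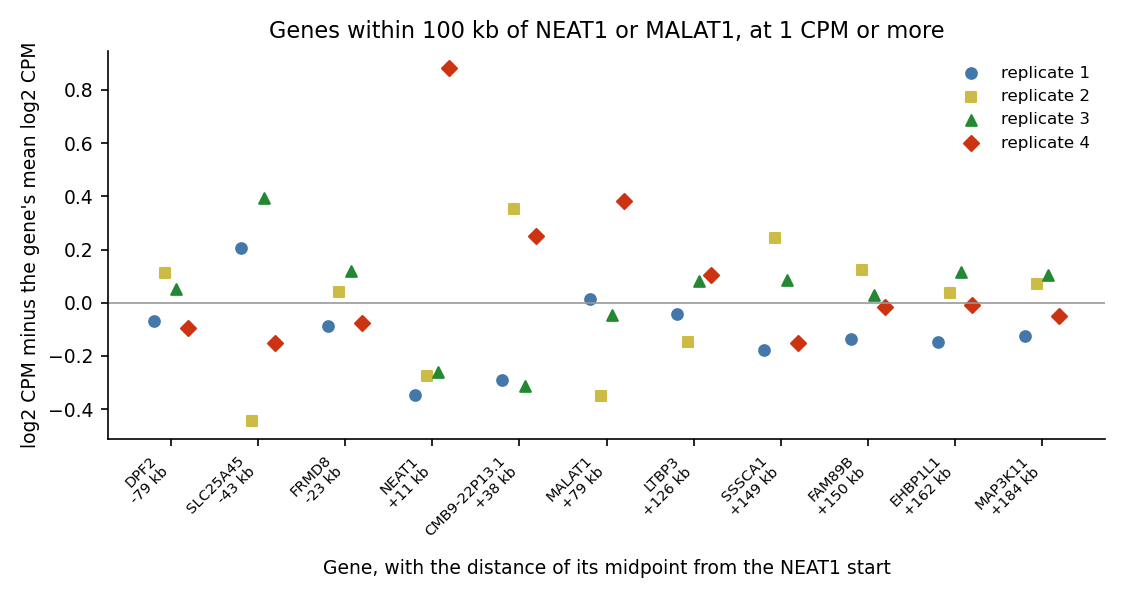
Log2 CPM in each library minus the gene's mean, for NEAT1, MALAT1 and 9 of the 10 other genes at 1 CPM or more within 100 kb of either, ordered by position and labelled with the distance of the gene midpoint from the NEAT1 start. Replicate 4 is far above the others for NEAT1 (0.88) and highest for MALAT1 (0.38), and lies at 0.25 or below for each neighbour shown.

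A further 22 genes of proteins reported in paraspeckles were all detected, at a median of 198 CPM, against 27.6 CPM for all 12984 detected genes. Of these, 18 varied by the chi-square test and 0 had a range over 1.5-fold, beside 77.7% and 1.75% of all genes averaging at least 10 CPM. Their deviations in replicate 4 ran from -0.22 to 0.12. The RNA-binding protein gene EWSR1 had 227 ± 12.7 CPM and its relative TAF15 128 ± 14.7. TAF15 was the member with the highest deviation in replicate 4.

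Among the hnRNP genes, HNRNPA1 had 1166 ± 53.1 CPM, or 229 CPM per kilobase of exon beside 131 for HNRNPK. HNRNPUL1 (326 ± 18.8), HNRNPF (261 ± 12.8), HNRNPH1 (251 ± 9.05), HNRNPR (227 ± 6.88) and HNRNPH3 (112 ± 4.02) had fewer reads. MATR3, a nuclear matrix protein, had 329 ± 18.6 CPM on its main row, and a second row of the same name makes that count uncertain. RBM3 and CIRBP, proteins induced by cold, had the widest ranges of the list. RBM3 had 213, 255, 223 and 188 CPM and CIRBP 76.4, 99.6, 97.2 and 79.9 CPM, both highest in replicate 2.

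RBMX (284 ± 5.53), RBM12 (138 ± 7.53) and RBM7 (40.6 ± 3.48) varied, as did the splicing regulator SRSF10 (113 ± 7.97), UBAP2L (200.4 ± 9.25) and the chromatin remodeller SMARCA4 (197 ± 11.6). The 4 genes that did not pass were RBM4B (9.65 ± 0.578), SS18L1 (12.6 ± 0.76), FAM98A (53.8 ± 1.56) and ZC3H6 (10.3 ± 0.637). All values in this list are CPM and are not divided by length.

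Of 3 genes of the cleavage factor that makes the short NEAT1 end, 1 varied, against 77.7% of the genes averaging at least 10 CPM. CPSF6 had 151, 149.9, 150.1 and 150.5 CPM, a 1.01-fold range, and did not pass the chi-square test (adjusted p = 0.972). CPSF7 had 85.2 ± 2.02 CPM and did not pass either (0.145). NUDT21, which reads the TGTA letters shown above, had 247, 249, 233 and 219 CPM and varied, with its lowest value in replicate 4. Per kilobase of exon NUDT21 stood at 39.8 CPM and CPSF6 at 18.6, against 131 for HNRNPK.

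A list of 6 genes was drawn up around the MALAT1 end and its triple helix, and not all of them act on that end. All 6 were detected and 3 varied, beside the same 77.7%. RPPH1, the RNA of RNase P, which makes the cuts shown above, had 7215, 13132, 9228 and 7545 CPM on its main row, highest in replicate 2, where MALAT1 was lowest. Of the structural RNAs that do not act on this end, RN7SL1 (37235 CPM), RN7SL2 (23773) and RN7SK (29476) were also highest there. RMRP was highest in replicate 3, at 4080 CPM against 4008 in replicate 2. A second RPPH1 row overlaps the main RPPH1 row, so the split is uncertain. Its protein partners POP1 (39.0 ± 1.47) and RPP30 (32.3 ± 1.86) had ranges of 1.10-fold and 1.14-fold. ELAC2, which trims the mascRNA end, had 97.3 ± 3.82 CPM. METTL16, which binds the MALAT1 triple helix, had 36.4 ± 1.06 CPM, and METTL3, the main writer of N6-methyladenosine, 73.9 ± 2.14. RPP30, ELAC2 and RPPH1 were those that varied.

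Nuclear speckle genes, whose bodies hold MALAT1, were all detected (10 of 10, median 243 CPM), and 9 varied, again beside 77.7% of genes averaging at least 10 CPM. The scaffold gene SRRM2 had 516, 479, 524 and 594 CPM, and the other scaffold gene SON had 403, 359, 394 and 416 CPM. Like MALAT1, both had their minimum in replicate 2 and their maximum in replicate 4, with ranges of 1.24-fold and 1.16-fold. SFPQ and TUG1 had the same minimum and maximum, so this is not particular to speckle genes. PNN, with the fewest reads, had 107, 90.3, 107 and 115 CPM. SRSF3 had 321 ± 14.5 CPM and was lowest in replicate 4. Of the 10, 0 had a range over 1.5-fold, beside 1.75% of all genes averaging at least 10 CPM. A share so near the background is not a result about the list.

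Transcription factors reported to activate NEAT1 were all expressed (6 of 6), and 5 varied, a share near the 77.7% of all genes at this level. HIF1A, the oxygen-sensing factor, had 669, 626, 628 and 596 CPM, and EPAS1, its relative HIF-2alpha, 307, 314, 318 and 316. ATF2, with the fewest reads, had 60.8 ± 4.41. HIF1A was lowest in replicate 4, where NEAT1 was highest, and the deviations of the 6 genes there ran up to 0.01. These are levels of RNA and do not measure the activity of the factors.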

How the data were processed

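Per the labels' protocols, total RNA from frozen cells was depleted of ribosomal RNA with a Ribo-Zero Plus kit and made into paired-end libraries. The submitters' processing notes name GRCh38 and the tools RSEM 1.3.3, Trimmomatic 0.39, DESeq2 1.46.0 and Bowtie2 2.5.4. No source used here gives the role of each tool, the annotation release or the strand setting. Per Ensembl gene, the authors deposited expected counts, not scaled between libraries, the unit being read from the values. They were rounded for tests. Effective library sizes came from edgeR 4.0.16 (TMM).

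Positions and exonic lengths came from GENCODE release 29, which holds 94.0% of the gene IDs. Genes averaging at least 10 counts entered the chi-square test (3 degrees of freedom, Benjamini-Hochberg adjustment), which was tested on simulated data. The simulated counts had counting noise alone, with some genes raised in a single library, and not the wider spread of these libraries. A detected gene reached 1 CPM in every library. Deviations and their ranks used log2(CPM + 0.01). List genes were matched by table name or Ensembl ID, and the row with the most counts was used.

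Named genes were the members, every gene of the paraspeckle, polyadenylation and MALAT1-end lists, the 3 highest and the lowest of other lists, neighbours at 1 CPM, and the 3 most alike to NEAT1 and MALAT1. KCNQ1OT1, FTX, RP11-366L20.2, MTATP6P1 and the deviations of replicate 4 were picked after values were seen. Some genes under the rule are not reported here. Members and lists were chosen with earlier results of these data known. Scaling (DESeq2 1.42.0 size factors, total counts, TMM on protein-coding genes), filters, rounding, lengths and left-out libraries were varied.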

Additional observations from a re-analysis of the deposited data

Results flagged for a closer look

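Of 15 sets of 4 library values checked (the 9 levels and 6 log2 ratios in CPM), 4 had 1 library whose gap to its nearest neighbour exceeded Dixon's 95% critical value for 4 values. The screen looks at how the libraries of 1 gene or ratio are spread, not at how high they stand. Chance gives about 1 in 20, and the sets share libraries and genes. The level of NEAT1 in replicate 4 was 596 CPM, with a gap of 0.953 of the range. The log2 ratio of NEAT1 to the 7 protein genes in replicate 4 was 1.78, with a gap of 0.988. The level of PSPC1 in replicate 2 was 49.8 CPM (gap 0.836), and the log2 ratio of PSPC1 to NONO there was -3.08 (gap 0.838).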

How the results depend on the processing

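No paired analysis was possible because the labels give 1 group. Dividing by annotated gene or longest transcript length moved every ratio, by construction. Per kilobase of exon and per kilobase of the longest transcript, the log2 ratio was -4.26 and -4.28 for NEAT1 to MALAT1 (-2.89 in CPM), 1.03 and 0.27 for both RNAs to the protein genes (2.32), 3.16 and 2.41 for MALAT1 to the protein genes (3.77), -0.79 and -0.53 for SFPQ to NONO (-0.30), and -3.05 and -2.77 for PSPC1 to NONO (-3.19). The ratio of NEAT1 to the protein genes reversed, from 0.88 in CPM to -1.10 and -1.87. With NEAT1 divided by its short transcript, added after the data were seen, the ratios of NEAT1 were 1.62 to the protein genes and -1.53 to MALAT1, while that of both RNAs to the protein genes was 2.39, close to its value in CPM. Leaving out each library in turn moved the biological coefficient of variation between 0.0706 and 0.244 for NEAT1 and between 0.0757 and 0.148 for MALAT1, and the members that varied between 6 and 9. Under total counts PSPC1 no longer varied (adjusted p = 0.15) and NONO did (0.000103). DESeq2 size factors, TMM on protein-coding genes, no filter and unrounded counts each left 8 of 9 varying. The other scalings moved no member's mean level by more than its SD. Counts of 1791 or more per member and library leave little counting error, so depth limits only the rows at or near 0.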
